A study of Mus musculus with 12 samples.

Results

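Cytochromes P450 and glutathione transferases are 2 enzyme superfamilies, the first of which oxidises foreign compounds, lipids and steroids, and the second of which joins glutathione to reactive compounds. They were followed here in the epididymal fat pad (eWAT, a visceral white fat depot) of C57BL/6 mice. The genes were chosen by symbol: Cyp followed by a digit, without Cyp51, or a symbol beginning with Gsta, Gstm, Gstp, Gstt, Gsto, Gstk, Gstz or Mgst. Of the 25232 rows of the deposited table, 129 matched, 104 for P450 and 25 for glutathione transferases. Of these, 56 had at least 0.5 CPM (reads of the gene scaled to the library total) in at least 3 of the 12 libraries and are the members described below, 34 P450 genes and 22 glutathione transferase genes. The 73 that failed included Cyp1a1, Cyp17a1, Cyp19a1, Gsta1 and Gsta2, whose highest values in any library were 0.233, 0.603, 0.0931, 0.140 and 0.0482 CPM. Just inside the threshold, the third-highest values of Gstt4 and Cyp2d9 were 0.503 and 0.510 CPM, and just outside it those of Cyp2b9 and Gstp3 were 0.462 and 0.443 CPM. Of the 56 members, 42 were at or above 0.5 CPM in all 12 libraries, and Cyp2c70 reached it only in libraries of 1 group.

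Genotypes were wild type (WT) and a knockout that the labels call TET KO (TKO), and mice of each genotype received either normal diet (ND) or the high-fat one (HFD). TET proteins oxidise methylated cytosine in DNA, and the series title places their loss in adipocytes. The alleles, the driver of deletion, the age of the mice and the length of feeding are not given in the sources used here. There were 3 biological replicates in each of the 4 groups, written ND_WT, ND_TKO, HFD_WT and HFD_TKO, with 20973140 to 25606629 reads per library.

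A P450 enzyme holds a haem that activates oxygen, using electrons passed on by P450 oxidoreductase or, in mitochondria, by ferredoxin. Families 1 to 3 act mainly on foreign compounds, family 4 on fatty acids, and a further set makes or breaks down sterols, steroids, retinoids and vitamin D. Glutathione transferases join glutathione to reactive molecules, among them the aldehydes that form when lipids are oxidised, and the membrane-bound forms also take part in leukotriene and prostaglandin synthesis. Liver is the classical site of both superfamilies, and fat tissue expresses a smaller set in adipocytes, stromal cells and resident immune cells.

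Levels of cell type marker genes differed between the groups, and since the RNA came from whole tissue, fewer cells of a type cannot be told apart from less RNA per cell. The summed level of 7 adipocyte marker genes was 28979 to 31896 CPM in ND_WT, 32505 to 36763 in ND_TKO, 15592 to 16915 in HFD_WT and 26639 to 27940 in HFD_TKO. The 6 macrophage markers summed to 614 to 901, 466 to 718, 4285 to 5061 and 859 to 976 CPM in the same order. All 6 macrophage markers rose on HFD in WT and were lower in TKO than in WT on HFD, and 6 of 7 adipocyte markers moved the opposite way in both comparisons. Of 6 hepatocyte markers, Fgb was at or under 3 reads in every library and Apoa1 and Ttr failed the filter. The 6 together summed to 23.9 to 38.9 CPM in ND_WT and 15.01 to 20.5 in ND_TKO. On HFD the sums were 9.74 to 11.2 CPM in WT and 16.3 to 19.2 in TKO, so that HFD_WT was lowest. Of the 3 tested, 1 rose and 1 fell on HFD in WT, with log2 changes from -3.45 to 1.76. In TKO on HFD 2 were higher and 1 lower, with differences from -1.13 to 2.05. Over all genes tested, 58.1% and 46.7% were called in these 2 comparisons. The part of hepatocyte RNA in the members' changes was not tested. The 8 epididymal epithelium markers were under the filter and summed to at most 0.421 CPM. However, 8 genes of ciliated epithelium, listed after their values were seen, summed to 31.8, 28.1, 34.4 and 30.5 CPM in ND_WT replicate 1, ND_TKO replicate 2, HFD_WT replicate 3 and HFD_TKO replicate 2, to 5.34 CPM in ND_TKO replicate 3 and to at most 0.834 CPM elsewhere. Each group held 1 of these 4 libraries. The third ND_WT library also stood apart, with 2588 CPM of the leptin gene Lep against 689 and 495 in the other ND_WT libraries.

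Changes are given as differences of log2(CPM + 1), which understate the change of genes below a few CPM, and adjusted p-values are from limma with Benjamini-Hochberg adjustment over all 15597 genes tested. A gene is said to have risen or fallen where its adjusted p was below 0.05. The number after ± is an SD over the 3 libraries of a group or, after a log2 difference, a standard error (SE).

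In WT, 18 of the 22 glutathione transferase genes fell on HFD and none rose with limma, edgeR or DESeq2, also at an unadjusted p of 0.05, while 8 P450 genes rose and 10 of 34 fell. Over all genes tested, 58.1% were called in this comparison, 37.8% higher and 20.3% lower, and over the 56 members 14.3% were higher and 50% lower. The median change of the glutathione transferase genes was -1.0 and that of the P450 genes 0.06, beside 0.13 over all genes. The P450 count depended on the filter: of the 22 P450 genes at or above 0.5 CPM in all libraries, 3 rose and 9 fell, and of the 20 such glutathione transferase genes 0 rose and 17 fell. The difference between the superfamilies was not tested. In TKO, 9 glutathione transferase genes fell on HFD and none rose, likewise with all 3 tools, and 2 P450 genes rose and 4 fell. The background there was 22.1% called, 16.2% higher and 5.9% lower. The medians were -0.34 for glutathione transferases and -0.17 for P450, beside 0.07.

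Within HFD, 14 glutathione transferase genes were higher in TKO than in WT and 1, Mgst2, was lower, and 7 P450 genes were higher and 8 lower. Of the 22 P450 genes at or above 0.5 CPM in all libraries, 5 were higher and 2 lower, and of the 20 such glutathione transferase genes 12 were higher and 1 lower. Over all genes, 46.7% were called, 15.2% higher and 31.6% lower, so that the share of members called in either direction, 53.6%, was near the background, while the higher calls made up 37.5% of the members and the lower ones 16.1%. On ND, 4 members were higher and 3 lower in TKO, against 5.7% of all genes called, 2.16% higher and 3.54% lower. That ND count went to 2 without ND_WT replicate 1, to 11 without ND_WT replicate 3 and to 3 without either ND_TKO replicate 1 or ND_TKO replicate 3, and with TMM scaling it was 5 higher and 2 lower. The count for HFD in TKO went from 15 to 9 without ND_TKO replicate 3 or without HFD_TKO replicate 3. The comparisons of HFD in WT and of TKO on HFD share the HFD_WT libraries. The interaction, the TKO effect on HFD minus that on ND, was positive for 15 members and negative for 8, against 28.7% of all genes called, 9.94% positive and 18.8% negative. With DESeq2 the split was 18 positive and 5 negative. Among genes at or above 0.5 CPM in all libraries it was 3 positive and 1 negative for P450 and 12 positive and 1 negative for glutathione transferases. With TMM scaling the median gene moved from 0.13 to -0.01 for HFD in WT and from -0.10 to 0.01 for TKO on HFD, and the split of all genes called moved: from 5892 higher and 3173 lower to 4550 and 4395 for HFD in WT, from 2365 and 4923 to 3541 and 3853 for TKO on HFD, from 2525 and 921 to 1520 and 1394 for HFD in TKO, from 337 and 552 to 498 and 424 for TKO on ND, and from 1550 and 2926 to 1987 and 2533 for the interaction. The members' counts with that scaling were 8 higher and 28 lower for HFD in WT, 23 and 9 for TKO on HFD, 2 and 17 for HFD in TKO, and 15 positive and 7 negative for the interaction.

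The 4 libraries with ciliated epithelium genes were also left out together, a step chosen after seeing the data. The counts were then 8 higher and 27 lower for HFD in WT, 19 higher and 8 lower for TKO on HFD, 1 higher and 1 lower for HFD in TKO, 9 positive and 4 negative for the interaction, and 0 for TKO on ND. There, 12 members had an unadjusted p below 0.05, and 18 of all tested genes were higher and 54 lower with limma on 2 libraries a group.

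**Figure D1:**
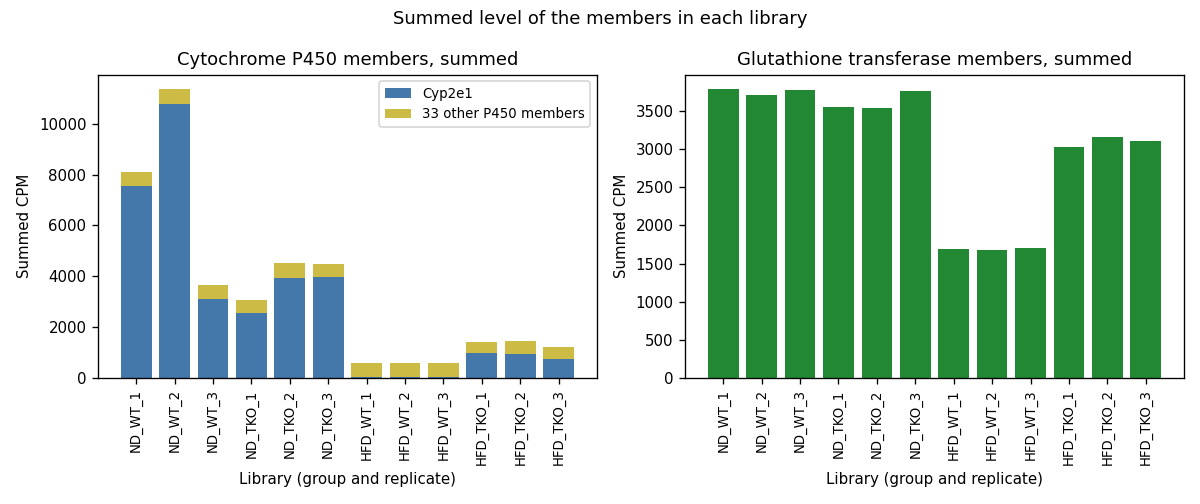
Summed CPM of the 34 P450 members (left, with the part from Cyp2e1 and from the other members stacked) and of the 22 glutathione transferase members (right) in each of the 12 libraries. The P450 sum is mostly Cyp2e1 except in HFD_WT, and the glutathione transferase sum is lowest in the 3 HFD_WT libraries.

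The summed P450 level was 8108, 11363 and 3656 (ND_WT), 3069, 4534 and 4492 (ND_TKO), 567, 571 and 571 (HFD_WT) and 1421, 1433 and 1213 (HFD_TKO) CPM. Cyp2e1 alone made up 84.6% to 94.8% of it in ND_WT, 82.8% to 88.5% in ND_TKO, 60.7% to 69.5% in HFD_TKO and 1.86% to 5.04% in HFD_WT. The summed glutathione transferase level was 3718 to 3790 CPM in ND_WT, 3545 to 3768 in ND_TKO, 1680 to 1698 in HFD_WT and 3032 to 3168 in HFD_TKO. The 3 HFD_WT libraries were thus the lowest of all in both sums, and HFD_TKO lay between HFD_WT and the ND libraries. For P450 this order came from Cyp2e1 alone. The 33 other P450 members summed to 550 to 586 CPM in ND_WT and 516 to 611 in ND_TKO. In HFD_WT they summed to 538 to 561 CPM, within the ND range, and in HFD_TKO to 433 to 496, the lowest of the groups.

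Per kilobase of exon, which allows genes to be ranked by level, Cyp2e1 was first among the members in ND_WT, ND_TKO and HFD_TKO at 3884, 1892 and 482 CPM per kilobase. In HFD_WT it was at rank 19, and the first 4 there were Mgst1, Gstz1, Gstm1 and Gstp1 at 220, 188, 181 and 137 CPM per kilobase. The same 4 genes were also the next 4 after Cyp2e1 in ND_WT, ND_TKO and HFD_TKO, in changing order.

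The promoters of 4 genes on which the results turn are printed here, the 3 with the widest range of level that had an entry and Cyp1b1, which moved the opposite way. They are the 250 bases before the start in the RefSeq promoter entry on GRCm38.p6, the same build as mm10, read 5′ to 3′ on the gene's strand. Capitals mark a match to a searched motif. The Gsta3 window ends at 21240584, past the RefSeq gene start at 21240565, so its last bases lie within the annotated gene.
Cyp2e1, chr7:140763569-140763818, plus strand: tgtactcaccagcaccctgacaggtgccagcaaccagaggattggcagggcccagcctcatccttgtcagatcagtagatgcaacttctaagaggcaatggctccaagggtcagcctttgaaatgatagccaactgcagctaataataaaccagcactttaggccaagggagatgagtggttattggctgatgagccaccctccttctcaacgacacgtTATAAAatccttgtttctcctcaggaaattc
Cyp2f2, chr7:27119705-27119954, plus strand: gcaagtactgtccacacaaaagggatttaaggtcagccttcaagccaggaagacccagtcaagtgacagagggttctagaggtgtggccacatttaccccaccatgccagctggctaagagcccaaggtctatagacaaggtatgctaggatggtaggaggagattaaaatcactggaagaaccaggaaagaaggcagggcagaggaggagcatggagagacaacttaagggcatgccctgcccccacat
Gsta3, chr1:21240335-21240584, plus strand: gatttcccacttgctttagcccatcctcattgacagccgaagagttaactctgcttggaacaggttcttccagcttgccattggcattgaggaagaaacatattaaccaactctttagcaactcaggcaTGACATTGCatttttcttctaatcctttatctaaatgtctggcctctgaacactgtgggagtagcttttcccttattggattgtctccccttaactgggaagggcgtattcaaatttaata
Cyp1b1, chr17:79715062-79715311, minus strand: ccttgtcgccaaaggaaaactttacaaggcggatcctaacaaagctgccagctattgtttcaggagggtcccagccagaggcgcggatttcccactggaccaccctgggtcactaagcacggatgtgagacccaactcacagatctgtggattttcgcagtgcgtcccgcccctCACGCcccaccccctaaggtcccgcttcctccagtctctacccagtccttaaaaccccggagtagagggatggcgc
The motifs were searched on both strands: GCGTG, the core bound by the aryl hydrocarbon receptor; TGACNNNGC, the core of the antioxidant response element; and DR1, the direct repeat of the nuclear receptor half-site with 1 base between. The TATA box, TATAAA, was added after the sequences were seen.

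In the Cyp2e1 promoter, TATAAA lay 31 to 26 bases before the start, in the Gsta3 promoter TGACNNNGC lay 121 to 113 bases before it, and in the Cyp1b1 promoter GCGTG lay on the opposite strand 76 to 72 bases before it. Of the 56 members, 47 had a RefSeq promoter entry. GCGTG was present in 14 of the 47 and in 28.2% of all 32851 promoters, TGACNNNGC in 6 and in 10.2%, TATAAA in 9 and in 12.4%, and DR1 in 0 and in 0.0335%. These matches describe the letters in this window and were not tested as binding sites.

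Among the 16 members of P450 families 1 to 3, Cyp2e1, which oxidises ethanol, acetone and fatty acids, had the widest range. It measured 7558, 10777 and 3094 (ND_WT), 2542, 3923 and 3976 (ND_TKO), 28.5, 16.9 and 10.6 (HFD_WT) and 988, 937 and 736 (HFD_TKO) CPM. The HFD_WT libraries lay far below all others, HFD_TKO lay below both ND groups, and the ND groups overlapped. Cyp2e1 fell on HFD by 8.43 ± 0.42 (SE, adjusted p = 2.88e-08) in WT, a 382-fold lower mean, and by 1.95 ± 0.42 (adjusted p = 0.00764) in TKO, a 3.92-fold lower mean. In WT, the adipocyte markers had a median change of -1.10 in the same comparison, and in TKO of -0.39. Cyp2e1 was higher in TKO than in WT on HFD by 5.59 (adjusted p = 9.08e-07), and the interaction was 6.47 ± 0.59 (adjusted p = 2.07e-05). On ND the TKO difference was -0.89 with an adjusted p of 0.232, and without ND_WT replicate 3 it was -1.40 with an adjusted p of 0.0203. Without the 4 libraries with ciliated epithelium genes the fall in TKO was -1.90 with an adjusted p of 0.0812, and the other 3 calls held.

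Cyp2f2, best known from airway club cells, where it activates naphthalene, followed the same order of groups at a far lower level. It was at 79.1, 104 and 21.1 (ND_WT), 36.1, 65.0 and 56.5 (ND_TKO), 0.742, 0.708 and 0.736 (HFD_WT) and 8.19, 14.1 and 13.0 (HFD_TKO) CPM. The 3 HFD_WT libraries were again the lowest, and replicate 3 of ND_WT was the lowest of its group for both genes. Cyp2f2 fell by 5.04 ± 0.45 (adjusted p = 2.08e-06) on HFD in WT and by 2.06 ± 0.45 (adjusted p = 0.00892) in TKO, and was higher by 2.85 (adjusted p = 0.000295) in TKO than in WT on HFD. The interaction was 2.98 (adjusted p = 0.00468). Without the 4 libraries with ciliated epithelium genes, the fall in TKO had an adjusted p of 0.0942 and the interaction one of 0.0916.

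**Figure D2:**
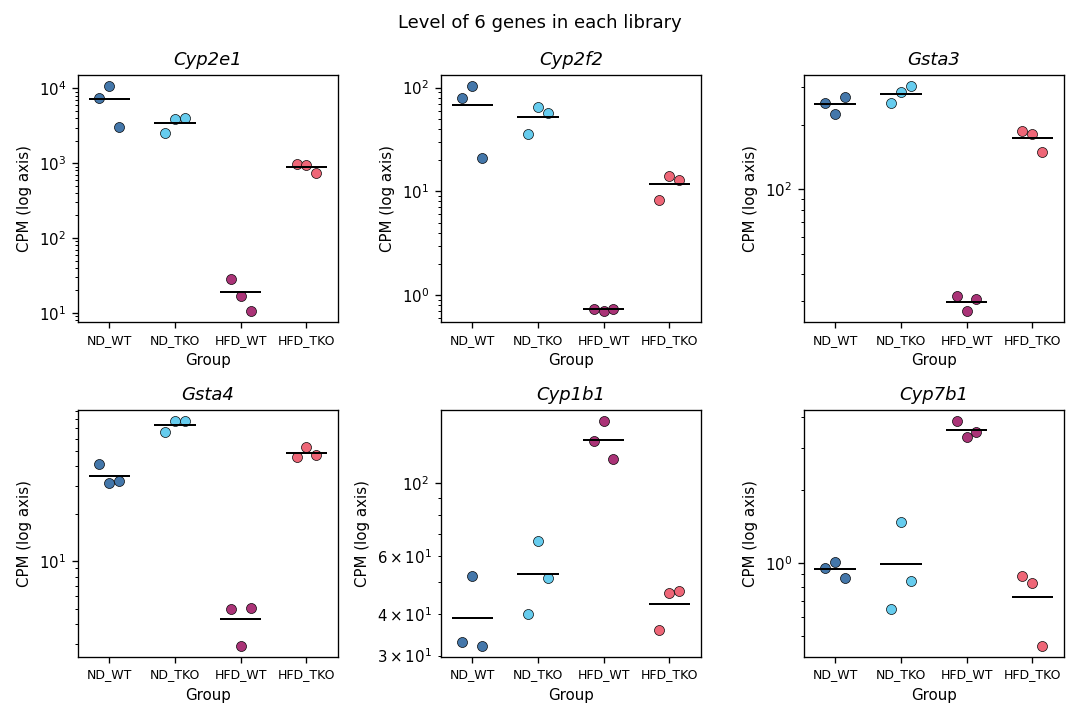
CPM on log axes of Cyp2e1, Cyp2f2, Gsta3, Gsta4, Cyp1b1 and Cyp7b1 by group, with a point for each library, coloured by group, and a line at the mean of its 3 libraries. The first 4 genes are lowest in HFD_WT and the last 2 are highest there, with no overlap between HFD_WT and any other group.

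Cyp1b1, which hydroxylates oestrogens and activates polycyclic hydrocarbons and is expressed outside the liver, went the other way. Its libraries measured 33, 52.2 and 32.2 (ND_WT), 40.2, 66.7 and 51.7 (ND_TKO), 134, 155 and 118 (HFD_WT) and 35.8, 46.3 and 47.0 (HFD_TKO) CPM. HFD_WT stood above the other 3 groups, which overlapped. Cyp1b1 rose by 1.79 ± 0.21 (adjusted p = 1.64e-05) on HFD in WT and was lower in TKO than in WT on HFD, with a difference of -1.64 (adjusted p = 5.26e-05). Its change on HFD in TKO was -0.27 with an adjusted p of 0.381, and the interaction was -2.07 (adjusted p = 0.000337). The macrophage marker sum was also highest in HFD_WT, and its part in the Cyp1b1 result was not tested.

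Cyp2c23, an arachidonic acid epoxygenase, and Cyp2c70, which hydroxylates bile acids in liver, had the same pattern near the detection limit. Cyp2c23 averaged 1.30 ± 0.272 CPM in HFD_WT and at most 0.417 in the other groups, and Cyp2c70 0.933 ± 0.320 CPM in HFD_WT and at most 0.183 elsewhere. Both rose on HFD in WT, by 0.71 and 0.90, and both were lower in TKO on HFD, by -0.85 and -0.75. Cyp2c70 reached 0.5 CPM in no library outside HFD_WT and Cyp2c23 in 1, as did Cyp11a1, and Cyp8b1 did in 2. These 4 genes thus entered the list through HFD_WT, and their differences between HFD_WT and the other groups, interactions included, are partly set by the filter. The interaction of Cyp2c23, -0.80, had an adjusted p of 0.0181 with limma, 0.0666 with edgeR and 0.0717 with DESeq2. Cyp2u1, which hydroxylates long-chain fatty acids, was lower in TKO on HFD, with a difference of -1.08 (adjusted p = 0.00119), at 0.967 ± 0.119 CPM against 3.21 ± 0.786 in HFD_WT, while its HFD changes in WT (0.39) and TKO (-0.25) missed the threshold.

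Of the other members of these families, Cyp2b10, a target of the xenobiotic receptor CAR in liver, fell on HFD in WT by 0.88 and was higher in TKO on HFD by 0.94, at 1.21 ± 0.139 CPM in HFD_TKO against 0.157 ± 0.127 in HFD_WT. Cyp2ab1 had the same 2 calls, -0.75 and 0.91. Its interaction, 0.91, had an adjusted p of 0.0312, and 8 of the 12 single libraries ended that call when left out, among them ND_WT replicate 3 (0.76, adjusted p = 0.0591) and HFD_WT replicate 3 (0.82, adjusted p = 0.0749). Cyp2j6 fell on HFD in WT by 0.31 and was higher in TKO on HFD by 0.48 (adjusted p = 0.000518), at 44.5 ± 1.71 CPM in HFD_TKO against 31.6 ± 2.74 in HFD_WT. Its neighbour Cyp2j9 fell on HFD in WT by 0.39, a call lost without HFD_WT replicate 2 (adjusted p = 0.0536). Cyp2b23, which reached 0.5 CPM only in TKO libraries so that the filter partly sets its difference, was higher in TKO on HFD by 0.56, at 0.662 ± 0.357 CPM against 0.118 ± 0.135, a call lost without HFD_TKO replicate 1 or 2 or HFD_WT replicate 1 or 3, with adjusted p-values of 0.0518 to 0.0773. Cyp2s1, which metabolises eicosanoids, averaged between 6.21 and 10.5 CPM in the 4 groups and was not called in any comparison with limma. Its change on HFD in WT, -0.64, had an adjusted p of 0.0229 without HFD_TKO replicate 1, and its interaction then one of 0.0455.

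Cyp2r1, a vitamin D hydroxylase, rose on HFD in both genotypes. It went from 1.38 ± 0.282 CPM in ND_WT to 3.47 ± 0.480 in HFD_WT, a change of 0.91 (adjusted p = 0.000112), and from 1.76 ± 0.0548 in ND_TKO to 3.27 ± 0.461 in HFD_TKO, a change of 0.62 (adjusted p = 0.00795). Its 2 genotype differences, 0.22 on ND and -0.07 on HFD, were not called. Cyp2d22, a drug-oxidising P450, was highest in ND_WT at 63.8, 72.4 and 46.4 CPM, against 33, 40.4 and 33.7 (ND_TKO), 23.8, 22.3 and 32.8 (HFD_WT) and 18.1, 26.1 and 25.6 (HFD_TKO). All ND_TKO libraries lay below all ND_WT libraries. It fell on HFD in WT by 1.18 (adjusted p = 0.000241), and its lower level in TKO on ND, -0.74, had an adjusted p of 0.0464 that passed the threshold narrowly. That call was lost without any of 9 single libraries, with the highest adjusted p, 0.153, without ND_WT replicate 2. The fall of Cyp2d22 on HFD in TKO, -0.61 (adjusted p = 0.0411), was lost without any of 7, with an adjusted p of 0.141 without HFD_TKO replicate 1.

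**Figure D3:**
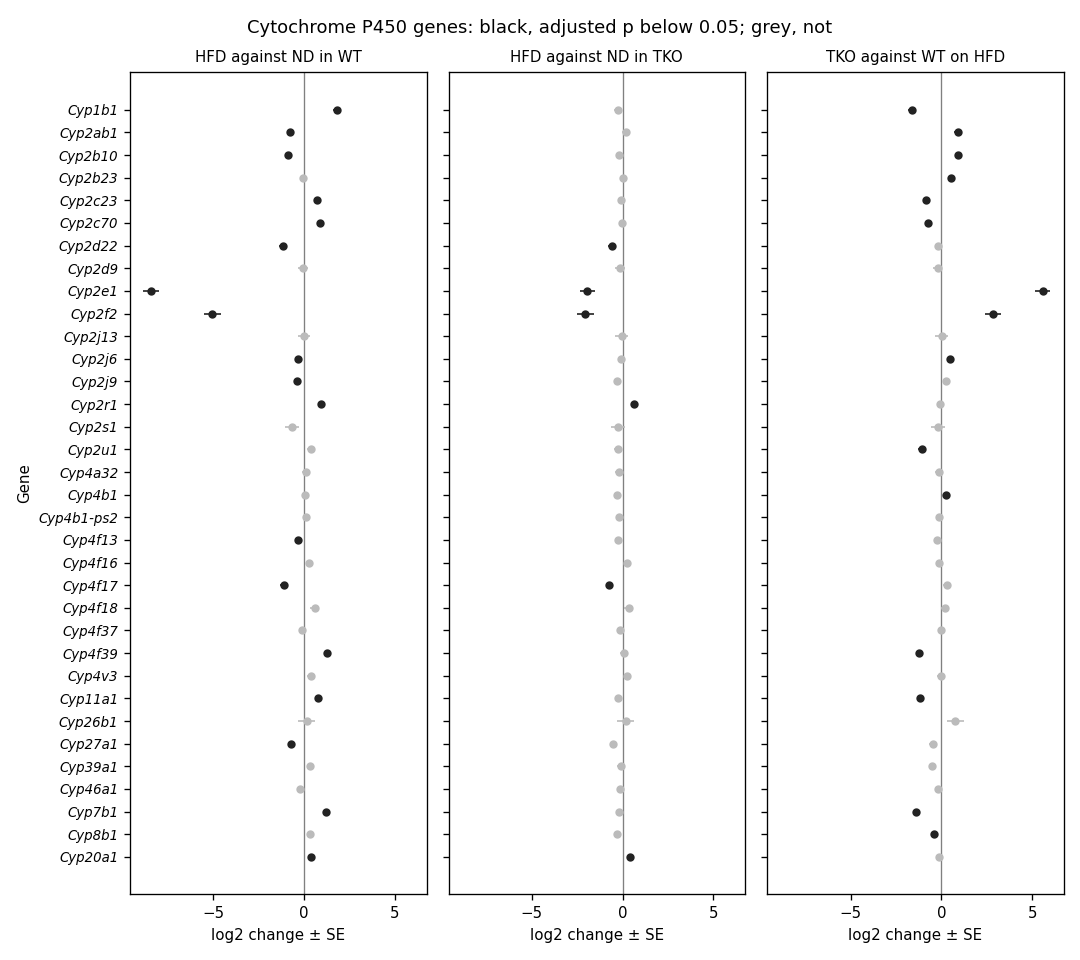
log2 changes of the 34 P450 members on log2(CPM + 1) with SE bars, for HFD against ND in WT, HFD against ND in TKO and TKO against WT on HFD, black where the adjusted p was below 0.05. Cyp2e1 and Cyp2f2 lie far below 0 in both HFD panels and above 0 in the third, and Cyp1b1, Cyp7b1 and Cyp4f39 lie above 0 in WT and below 0 in the third.

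The 10 members of P450 family 4, whose best known activity is hydroxylation at the far end of fatty acid chains, had 3 calls on HFD in WT, beside 58.1% of all genes called. Cyp4f39 rose, Cyp4f13 and Cyp4f17 fell, and the other 7 were not called. Cyp4f13 lost its call without HFD_WT replicate 1 or 2 or ND_WT replicate 1 or 2, with adjusted p-values of 0.0547 to 0.0718. Cyp4f39, which acts on very long fatty acids in skin, was at 0.525, 0.139 and 0.776 (ND_WT), 0.693, 0.278 and 0.401 (ND_TKO), 2.07, 2.74 and 2.77 (HFD_WT) and 0.419, 0.414 and 0.686 (HFD_TKO) CPM. HFD_WT did not overlap the other groups. Its change was 1.27 on HFD in WT (adjusted p = 8.43e-05) and -1.23 in TKO against WT on HFD (adjusted p = 0.000163).

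Cyp4b1, which is expressed outside the liver and acts on short fatty acids and some toxins, had the highest level of the family per kilobase in each group. It was at 60.0, 58.0 and 65.6 (ND_WT), 94.8, 105 and 79.5 (ND_TKO), 62.2, 62.4 and 64.5 (HFD_WT) and 72.7, 82.4 and 71.7 (HFD_TKO) CPM. Each TKO group lay above the WT group of the same diet. The rise in TKO was 0.59 on ND (adjusted p = 0.00467) and 0.26 on HFD (adjusted p = 0.0472), and the HFD call was lost when any of 9 single libraries was left out, with an adjusted p of 0.165 without HFD_TKO replicate 2. Without the 4 libraries with ciliated epithelium genes the ND difference was 0.49 with an adjusted p of 0.131. Cyp4f17 fell on HFD in both genotypes, from 22.2 ± 7.45 to 9.37 ± 0.516 CPM in WT (-1.11) and from 20.7 ± 2.85 to 11.9 ± 0.941 in TKO (-0.75). The fall in TKO lost its call without HFD_TKO replicate 2 or 3 or ND_TKO replicate 2 or 3, with adjusted p-values of 0.0509 to 0.0689. Cyp4f16 and Cyp4f18 averaged 13.6 to 17.4 and 2.92 to 5.58 CPM in the groups, and Cyp4f37, Cyp4a32 and the pseudogene Cyp4b1-ps2 at most 1.30 CPM. None of these 5 was called with all libraries by limma, and without ND_WT replicate 3 Cyp4f16 and Cyp4f18 were higher on HFD in WT, by 0.33 and 0.85.

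Cyp4v3, which acts on medium-chain fatty acids and whose human counterpart is mutated in a retinal dystrophy, averaged 96.9 ± 37.6, 98.7 ± 9.86, 120 ± 2.25 and 118 ± 5.65 CPM in ND_WT, ND_TKO, HFD_WT and HFD_TKO. No comparison was called with all libraries. The third ND_WT library was at 140 CPM against 79.1 and 71.5 in the other ND_WT libraries, and without it Cyp4v3 was higher on HFD in WT by 0.67 (adjusted p = 5.31e-05), on HFD in TKO by 0.26 (adjusted p = 0.0295) and in TKO on ND by 0.38 (adjusted p = 0.0174), with an interaction of -0.41 (adjusted p = 0.0195).

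Of the 7 members that act on sterols, steroids, retinoids and vitamin D, 3 (42.9%) were called on HFD in WT. Over all genes the share was 58.1%. Cyp7b1 and Cyp11a1 rose and Cyp27a1 fell. On HFD in TKO none was called with limma (1 had an unadjusted p below 0.05), beside 22.1% of all genes. There, edgeR called Cyp11a1 and Cyp27a1 lower and DESeq2 Cyp27a1. Cyp7b1, an oxysterol hydroxylase, measured 0.954, 1.01 and 0.867 (ND_WT), 0.646, 1.48 and 0.845 (ND_TKO), 3.87, 3.32 and 3.46 (HFD_WT) and 0.884, 0.827 and 0.457 (HFD_TKO) CPM. The HFD_WT libraries stood above the other 9. Cyp7b1 rose by 1.22 ± 0.16 (adjusted p = 4.80e-05) on HFD in WT, was lower in TKO on HFD with a difference of -1.41 (adjusted p = 2.43e-05), and had an interaction of -1.42 (adjusted p = 0.000778).

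Cyp11a1, the side-chain cleavage enzyme that starts steroid synthesis, was at 1.54 ± 0.180 CPM in HFD_WT, 0.514 ± 0.175 in ND_WT, 0.321 ± 0.0974 in ND_TKO and 0.108 ± 0.0533 in HFD_TKO. It entered the list through HFD_WT, rose by 0.75 on HFD in WT and was lower by -1.20 (adjusted p = 1.36e-05) in TKO on HFD. Of 4 marker genes of Leydig and adrenal cells, Hsd3b1 and Hsd17b3 were at or under 3 reads in every library, and Star averaged 7.83 ± 0.892 CPM in ND_WT and 6.34 ± 1.24 in HFD_WT. All 4 mast cell markers rose on HFD in WT as Cyp11a1 did, Cpa3 by 2.10. In TKO on HFD, Cpa3, Cma1 and Mcpt4 were lower, Cpa3 by -3.40, and Kit, at -0.28, was not called. All 6 macrophage markers also rose on HFD in WT and were lower in TKO on HFD. Of 5 T and B cell markers, 3 rose and 5 were lower in the same comparisons. The part of these cell types in the Cyp11a1 result was not tested.

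Cyp27a1, a mitochondrial sterol hydroxylase, fell on HFD in WT from 68.2 ± 17.1 to 41.2 ± 6.43 CPM (-0.70, adjusted p = 0.00908). Its differences in TKO, -0.64 on ND and -0.46 on HFD, had adjusted p-values of 0.0807 and 0.0735. The bile acid enzyme Cyp8b1, which also entered the list through HFD_WT, at 0.694 ± 0.231 CPM in HFD_WT and 0.260 ± 0.160 in HFD_TKO, was lower in TKO on HFD by -0.43 (adjusted p = 0.0269), a call lost without HFD_TKO replicate 1 or 2 or HFD_WT replicate 3, with adjusted p-values of 0.0528 to 0.113. Cyp26b1, which degrades retinoic acid, was at 2.19, 1.15 and 10.4 CPM in HFD_WT, the highest value coming from the library with ciliated epithelium genes, and at 6.00, 6.11 and 6.81 in HFD_TKO. Its difference of 0.77 in TKO on HFD had an adjusted p of 0.186, and without HFD_WT replicate 3 it was 1.48 with an adjusted p of 0.000362. Cyp39a1 and Cyp46a1, which hydroxylate oxysterols and cholesterol, were not called in any comparison with all libraries. Cyp39a1 was lower in TKO on HFD without HFD_TKO replicate 2 (-0.62, adjusted p = 0.0447) or 3 (-0.62, adjusted p = 0.0465).

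Cyp20a1, the single member of its family and without an established substrate, rose on HFD in both genotypes by 0.40 (adjusted p = 0.00121) and 0.38 (adjusted p = 0.00804). It averaged 25.6 ± 0.486 CPM in ND_WT, 24 ± 1.76 in ND_TKO, 34.2 ± 2.07 in HFD_WT and 31.5 ± 2.28 in HFD_TKO.

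Among the glutathione transferases, the 2 alpha class members moved most. Gsta3, whose product also isomerises steroid intermediates, measured 254, 226 and 269 (ND_WT), 252, 284 and 304 (ND_TKO), 31.6, 27 and 30.5 (HFD_WT) and 188, 181 and 150 (HFD_TKO) CPM. The ND groups overlapped, HFD_TKO lay below both, and HFD_WT lay below HFD_TKO with a mean 5.83 times smaller. Gsta3 fell by 3.03 ± 0.11 (adjusted p = 5.71e-09) on HFD in WT and by 0.69 ± 0.11 (adjusted p = 0.00184) in TKO, was higher by 2.50 (adjusted p = 3.14e-08) in TKO on HFD, and had an interaction of 2.33 (adjusted p = 3.19e-06).

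Gsta4, which conjugates aldehydes made by lipid peroxidation, was the 1 member called higher in TKO on both diets in every fit that left out a single library. Its libraries measured 41.4, 31.2 and 32.1 (ND_WT), 65.5, 77.0 and 77.7 (ND_TKO), 5.0, 2.92 and 5.06 (HFD_WT) and 45.5, 52.9 and 47.2 (HFD_TKO) CPM. No groups overlapped, and HFD_TKO lay above ND_WT. Gsta4 was higher in TKO by 1.06 ± 0.16 (adjusted p = 0.00356) on ND and by 3.24 ± 0.16 (adjusted p = 7.95e-08) on HFD. It fell on HFD by 2.77 (adjusted p = 7.64e-08) in WT and by 0.59 (adjusted p = 0.0258) in TKO, the latter call being lost without HFD_TKO replicate 1 or 3 or ND_TKO replicate 2 or 3, with adjusted p-values of 0.0721 to 0.0923. Without the 4 libraries with ciliated epithelium genes the ND difference was 1.15 with an adjusted p of 0.0672.

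**Figure D4:**
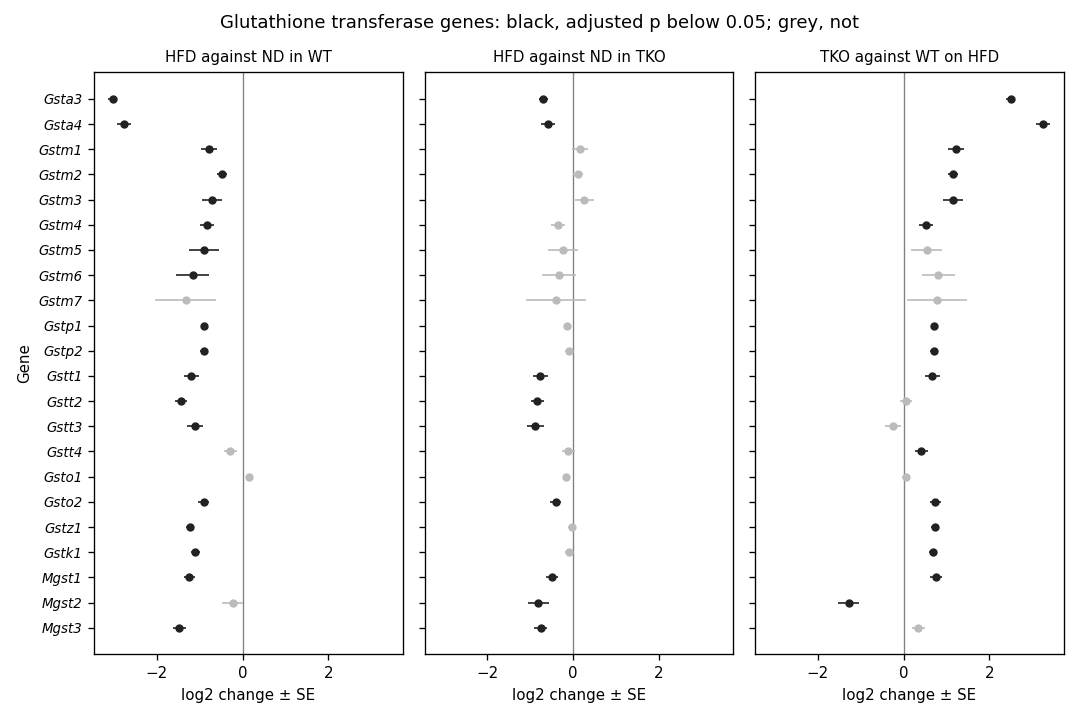
log2 changes of the 22 glutathione transferase members on log2(CPM + 1) with SE bars, in the same 3 comparisons and colours as for the P450 members and on a narrower axis. All but Gsto1 lie below 0 for HFD in WT (Gsto1 is at -0.01 with TMM scaling), and all but Gstt3 and Mgst2 lie above 0 for TKO against WT on HFD, with the uncalled ones in grey.

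The mu class held 7 members in a run on chromosome 3, which conjugate a broad set of electrophiles. Their sequences are alike, and how reads that match several of them were counted is not given in the sources used here, so the split of reads between them is uncertain. In WT, 6 of the 7 fell on HFD, beside 20.3% of all genes lower. In TKO none was called with limma, edgeR or DESeq2, with 0, 1 and 1 of them at an unadjusted p below 0.05. With limma 22.1% of all genes were called there and 5.9% were lower, and 0 of 7 is not told apart from those shares. The fall of Gstm3 lost its call without HFD_WT replicate 1 or ND_WT replicate 3 (adjusted p = 0.0790 and 0.0670), that of Gstm6 without HFD_WT replicate 1 or 2 or ND_WT replicate 1 or 3 (adjusted p up to 0.0936), and that of Gstm5 without those 4 or HFD_TKO replicate 3 or ND_TKO replicate 3 (adjusted p up to 0.161). Gstm1 was at 417, 326 and 576 (ND_WT), 594, 480 and 487 (ND_TKO), 237, 256 and 250 (HFD_WT) and 463, 641 and 641 (HFD_TKO) CPM. HFD_WT lay below every other library, and HFD_TKO overlapped ND_TKO. Gstm1 was higher in TKO on HFD by 1.21 ± 0.19 (adjusted p = 0.000216).

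Gstm2 was at 165, 143 and 183 (ND_WT), 266, 219 and 236 (ND_TKO), 115, 118 and 114 (HFD_WT) and 309, 238 and 236 (HFD_TKO) CPM. Each TKO group lay above the WT group of its diet. The differences were 0.56 on ND (adjusted p = 0.0183) and 1.16 on HFD (adjusted p = 9.21e-06). The ND call was lost without ND_TKO replicate 1 or 3 or ND_WT replicate 1 or 2, with adjusted p-values of 0.0585 to 0.0710. Gstm3 and Gstm4 were also higher in TKO on HFD, by 1.15 and 0.52, the latter call being lost without HFD_TKO replicate 3 or HFD_WT replicate 1 or 3, with adjusted p-values of 0.0553 to 0.0915.

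Gstm5, Gstm6 and Gstm7 varied with the ciliated epithelium genes. In HFD_WT, Gstm7 was at 2.66, 1.81 and 15.4 CPM, and in ND_TKO at 6.60, 23.6 and 9.42, the high value in each case coming from the library with the ciliated epithelium genes. Gstm5 and Gstm6 were highest in the same library of every group, for example at 34.1 CPM of Gstm5 in HFD_WT replicate 3 against 16.0 and 14.5 in the others. Cyp2j13 was at 0.811, 0.881, 0.779 and 0.873 CPM in these 4 libraries and at most 0.134 in the other 8, and Cyp2d9 was at 0.763, 0.510 and 0.736 CPM in 3 of them and 0.138 in HFD_TKO replicate 2. Neither Cyp2j13 nor Cyp2d9 reached 0.5 CPM outside these 4 libraries, so that the filter partly sets their pattern. The TKO differences of Gstm5, Gstm6 and Gstm7 on HFD, 0.53, 0.81 and 0.78, were not called with all libraries. Without the 4 libraries those of Gstm5 and Gstm7 were 0.58 (adjusted p = 0.0373) and 1.0 (adjusted p = 0.00817), with 2 libraries a group.

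**Figure D5:**
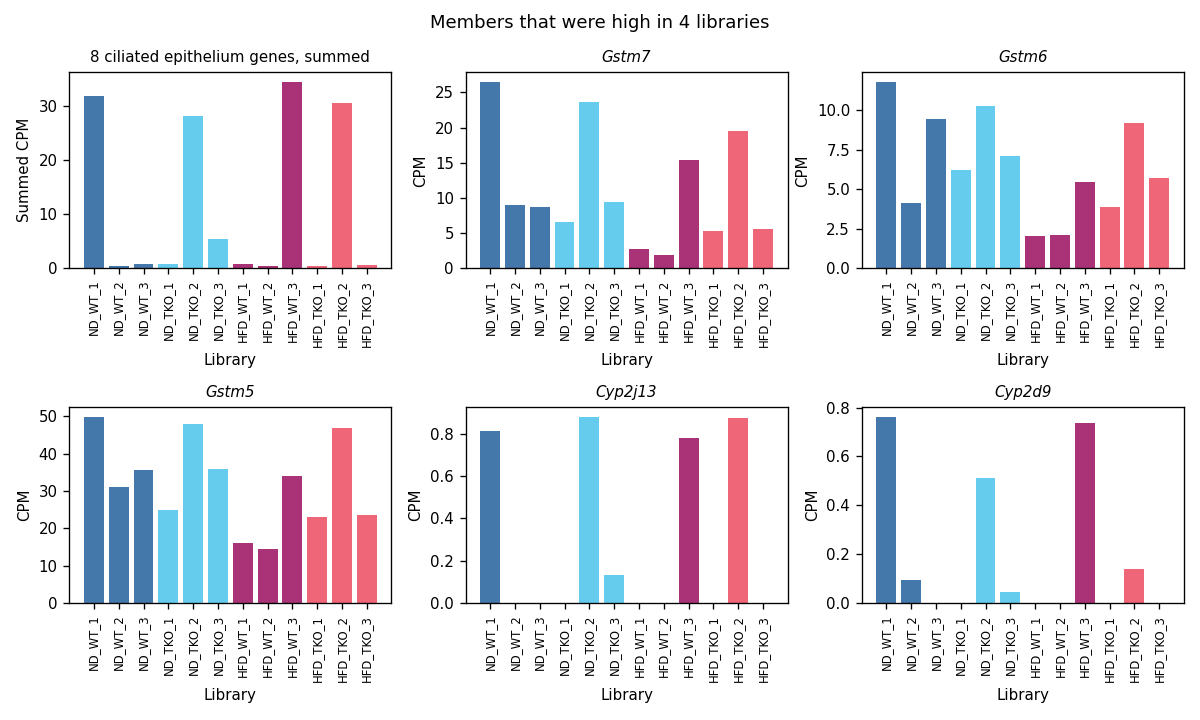
Summed CPM of 8 ciliated epithelium genes and CPM of Gstm7, Gstm6, Gstm5, Cyp2j13 and Cyp2d9 in each library, coloured by group. The epithelium sum is near 30 CPM in 1 library of each group, and the 5 genes are high in those libraries, except Cyp2d9 in HFD_TKO replicate 2.

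Gstp1 and Gstp2, the pi class members, are neighbours on chromosome 19 with near-identical sequence, so their reads may be exchanged between them. Gstp1 was at 217, 199 and 217 (ND_WT), 197, 192 and 220 (ND_TKO), 111, 110 and 115 (HFD_WT) and 178, 179 and 196 (HFD_TKO) CPM. The HFD_WT libraries were the lowest, with an SD of 2.52. Gstp1 fell by 0.90 ± 0.07 (adjusted p = 7.03e-07) on HFD in WT and was higher by 0.71 (adjusted p = 8.24e-06) in TKO on HFD, while Gstp2 fell by 0.91 and was higher by 0.70. Neither was called on HFD in TKO, with changes of -0.14 and -0.11.

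The theta class, which acts on small halogenated compounds and peroxides, held 4 members. Gstt1, Gstt2 and Gstt3 fell on HFD in both genotypes. In WT the changes were -1.20, -1.44 and -1.12, and in TKO -0.76, -0.83 and -0.88, of which that of Gstt1 had an adjusted p of 0.0541 without ND_TKO replicate 3. Gstt1 was higher in TKO on HFD, by 0.66 (adjusted p = 0.00892), at 37.4, 63.7 and 62.1 CPM against 30.9, 31.0 and 37.8 in HFD_WT, ranges that overlapped. Gstt2, at 15.3, 20.2 and 18.6 CPM in HFD_TKO and 15.4, 17.9 and 18.7 in HFD_WT, had a difference of 0.05 ± 0.14 (adjusted p = 0.802), and that of Gstt3 was -0.24 ± 0.19. Gstt2 was lower in TKO on ND by -0.55 (adjusted p = 0.0442), and that call was lost when any of 10 single libraries was left out, HFD_TKO replicate 1 and ND_WT replicate 3 being the exceptions, with an adjusted p of up to 0.148 (without ND_WT replicate 2). Gstt4, at most 0.693 CPM in any library, was higher in TKO on HFD by 0.41 with an adjusted p of 0.0425 that rose above the threshold without any of 8 single libraries (to 0.133 without HFD_TKO replicate 3), and the 3 HFD_WT libraries held fewer than 3 reads of it each. Gstt4 reached 0.5 CPM in 3 libraries, none of them in HFD_WT, so that the filter partly sets this difference.

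Of the omega class, which reduces oxidised thiols and arsenic compounds, Gsto1 varied little, averaging 62.3 ± 4.60 CPM in ND_WT, 80.4 ± 1.2 in ND_TKO, 69.4 ± 3.52 in HFD_WT and 71.7 ± 5.62 in HFD_TKO. It was called higher in TKO on ND, by 0.37 (adjusted p = 0.0178), and in that comparison the call was lost without ND_TKO replicate 1 or 3 or ND_WT replicate 1, with adjusted p-values of 0.0585 to 0.0807. Gsto2, at 0.431 ± 0.143 CPM in HFD_WT and 1.38 ± 0.111 in HFD_TKO, fell on HFD in WT by 0.91 and was higher in TKO on HFD by 0.74 (adjusted p = 0.000657). Its fall on HFD in TKO, -0.41 (adjusted p = 0.0440), was lost with edgeR, with DESeq2 and without any of 9 single libraries, with an adjusted p of 0.145 without ND_TKO replicate 1.

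Gstz1, the zeta class enzyme that isomerises maleylacetoacetate in tyrosine breakdown, measured 970, 877 and 1007 (ND_WT), 687, 636 and 706 (ND_TKO), 412, 411 and 387 (HFD_WT) and 765, 630 and 618 (HFD_TKO) CPM. TKO lay below WT on ND and above it on HFD, with no overlap on either diet, and ND_TKO overlapped HFD_TKO. The difference was -0.49 ± 0.10 (adjusted p = 0.0125) on ND and 0.73 ± 0.10 (adjusted p = 6.58e-05) on HFD, with an interaction of 1.22 (adjusted p = 6.72e-05). The ND call was lost with TMM scaling (-0.43, adjusted p = 0.0516), with edgeR (adjusted p = 0.0552) and without ND_WT replicate 1 (adjusted p = 0.0557). Gstz1 fell on HFD in WT by 1.23 (adjusted p = 5.79e-07), and its change in TKO was -0.02 ± 0.10.

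Gstk1, the kappa class enzyme of mitochondria and peroxisomes, fell on HFD in WT by 1.10, from 52.8 ± 6.75 to 24 ± 1.27 CPM, and its change in TKO was -0.09. It was higher in TKO on HFD by 0.69 (adjusted p = 0.000106), and the interaction was 1.01 (adjusted p = 0.000235).

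Of the 3 membrane-bound members, Mgst1, an abundant enzyme of the endoplasmic reticulum and outer mitochondrial membrane that protects against lipid peroxides, was at 961, 1187 and 772 (ND_WT), 872, 985 and 1026 (ND_TKO), 425, 400 and 388 (HFD_WT) and 649, 698 and 695 (HFD_TKO) CPM. The HFD groups did not overlap each other or the ND groups, and the ND groups overlapped. Mgst1 fell on HFD in WT by 1.24 (adjusted p = 7.65e-06) and in TKO by 0.49 (adjusted p = 0.0202), the latter call being lost without HFD_TKO replicate 1 or 3 or ND_TKO replicate 2 or 3, with adjusted p-values of 0.0507 to 0.0825, and was higher in TKO on HFD by 0.75 (adjusted p = 0.000588). Mgst3, which reduces lipid hydroperoxides, fell on HFD in WT by 1.47 (adjusted p = 7.02e-06) and in TKO by 0.76 (adjusted p = 0.00596), and its difference of 0.34 in TKO on HFD had an adjusted p of 0.0921.

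Mgst2, which can make a cysteinyl leukotriene, went against the rest. It was at 17.4, 22.9 and 12.5 (ND_WT), 7.98, 11.5 and 11.2 (ND_TKO), 15.9, 13.4 and 13.8 (HFD_WT) and 8.33, 4.41 and 4.02 (HFD_TKO) CPM. Each TKO group lay below the WT group of its diet. The difference was -1.28 ± 0.25 (adjusted p = 0.00123) on HFD and -0.70 ± 0.25 (adjusted p = 0.122) on ND, where it was -0.91 with an adjusted p of 0.0363 without ND_WT replicate 3. The change of Mgst2 on HFD in WT was -0.23 and was not called, and in TKO it fell by 0.81 (adjusted p = 0.0368), a call lost without any of 7 single libraries, with an adjusted p of up to 0.131 (without HFD_TKO replicate 3).

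Genes that serve these enzymes were read from lists of other pathway members. For their counts, the background over all genes was 37.8% higher and 20.3% lower for HFD in WT, and 15.2% higher and 31.6% lower for TKO on HFD. Of 9 electron donors and partners, 5 fell (55.6%) and 1 rose on HFD in WT, and 6 were higher (66.7%) and none lower in TKO on HFD. Por, the oxidoreductase that supplies microsomal P450 enzymes, averaged 764 ± 119 CPM in ND_WT, 624 ± 61.0 in ND_TKO, 225 ± 15 in HFD_WT and 398 ± 77.2 in HFD_TKO. It fell by 1.75 on HFD in WT and by 0.66 in TKO. Fdx1, the mitochondrial ferredoxin, fell by 1.51 and 0.48, and Cyb5b, the outer mitochondrial cytochrome b5, rose by 1.0 and 1.27.

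Of 15 regulators, 13 were tested. On HFD in WT 6 fell and 2 rose, 61.5% called beside 58.1% of all genes. On HFD in TKO none was called by limma, where the share over all genes was also smaller, 22.1%, with 16.2% higher and 5.9% lower. There, 0 of the 13 had an unadjusted p below 0.05, and the changes lay between -0.27 and 0.31. Cebpa, Rxra, Pparg and Ppara fell in WT by 1.17, 0.69, 0.66 and 1.13, and Nfe2l2, whose product NRF2 drives antioxidant genes, rose by 0.58, from 92.6 ± 3.54 to 139 ± 6.47 CPM. In TKO against WT on HFD, 4 of the 13 were higher (30.8%) and 3 lower (23.1%), beside 15.2% and 31.6% of all genes. Nfe2l2 was lower there by -0.65. The aryl hydrocarbon receptor gene Ahr was at 12.8 ± 1.65 CPM in HFD_WT and 8.33 ± 0.303 in HFD_TKO, a difference of -0.56, and its repressor Ahrr rose on HFD in WT by 0.68.

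Of 9 genes of glutathione synthesis and recycling, 3 rose (33.3%) and 1 fell (11.1%) on HFD in WT, near or under the background of 37.8% and 20.3%, and 2 were lower (22.2%) and none higher in TKO on HFD, beside 31.6% and 15.2%. Gclc, the catalytic subunit that limits glutathione synthesis, had differences between -0.14 and 0.14 in the 4 pairwise comparisons and was not called, and Gclm, its modifier subunit, rose on HFD by 0.41 in WT and 0.50 in TKO. Of 5 transporters that export glutathione conjugates, 3 rose (60%) on HFD in WT and 2 were lower (40%) in TKO on HFD, Abcc3 with 0.96 and -0.66. Of 23 tested genes among 24 other conjugating and phase I enzymes, 13 fell (56.5%) and 3 rose (13%) on HFD in WT, and 10 were higher (43.5%) and 3 lower (13%) in TKO on HFD. Ces1d, a carboxylesterase and lipase of fat cells, fell in WT by 2.80 and was higher in TKO on HFD by 1.77. The epoxide hydrolase gene Ephx2 was higher in TKO on both diets, by 1.29 on ND and 1.25 on HFD. As beside all members, the adipocyte and macrophage marker sums moved with these counts, and their part was not tested.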

How the data were processed

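RNA-seq libraries of eWAT from 4 groups of 3 biological replicates were analysed. The submitters' processing notes name the build mm10 and the tools DESeq2, featureCounts 2.0.0 and STAR 2.7.3a. The deposited values are CPM per gene, reads that the authors scaled to the library total, per the file headers. The values are multiples of 1 read plus 0.01, so the whole reads were recovered, with 100% of values within 0.05 read of a whole number in every library. Strandedness and the treatment of reads that match several genes are not given in the sources used here. Library totals were 20973140 to 25606629 reads, 3 reads being 0.117 to 0.143 CPM. The 3 rows without a symbol held 0.0313% to 0.0679% of CPM and were left out.

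Genes with at least 0.5 CPM in at least 3 libraries were tested on log2(CPM + 1) with limma 3.58.1 (trend, R 4.3.3), using the 4 group means over all 12 libraries with 8 residual degrees of freedom. The genotypes were compared within each diet, the diets within each genotype, and the interaction was tested. The script was tested on simulated data. Alternatives were pseudocounts of 0.5 and 5 CPM, no filter, a filter of 1 CPM in 6 libraries, TMM-scaled CPM, edgeR 4.0.16 (quasi-likelihood) and DESeq2 1.42.0 on the recovered reads, a fit on the groups compared alone, the replicate number as a block, and each library left out in turn.

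The members and lists were chosen with earlier results of these data known. Genes were named if they were in a fixed panel, among the 10 largest changes called in a direction, called in the interaction, or liable to share reads. Motifs were searched in the 250 bases before each start only. The ciliated epithelium list, the TATAAA motif and the counts for members not otherwise described were added after values were seen. Levels per kilobase used the union of GENCODE M21 exons.

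Some items are not reported here.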

Additional observations from a re-analysis of the deposited data

Results flagged for a closer look

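In 23 members the TKO effect differed between the diets by limma's interaction test, with an adjusted p below 0.05 over all genes tested. The values here are the TKO effect on HFD minus that on ND, on log2(CPM + 1).

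Of the P450 genes, the positive differences were those of Cyp2e1 (6.47, adjusted p = 2.07e-05), Cyp2f2 (2.98) and Cyp2ab1 (0.91). The negative ones were those of Cyp1b1 (-2.07), Cyp7b1 (-1.42), Cyp4f39 (-1.22), Cyp11a1 (-1.0), Cyp2c70 (-0.95), Cyp2c23 (-0.80) and Cyp8b1 (-0.63). Of the last 3, none averaged above 1.30 CPM in any group. Cyp11a1, Cyp2c70, Cyp2c23 and Cyp8b1 entered the list through HFD_WT, so that the filter partly sets their differences. Among the 22 P450 genes at or above 0.5 CPM in all libraries, 3 differences were positive and 1 negative.

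Of the glutathione transferase genes, 12 had a positive difference. The alpha, zeta and kappa class genes were at the top, Gsta3 with 2.33 (adjusted p = 3.19e-06), Gsta4 with 2.18, Gstz1 with 1.22 and Gstk1 with 1.01. The mu and pi class genes followed, Gstm3 with 0.98, Gstm1 with 0.94, Gstp2 with 0.80, Gstp1 with 0.77 and Gstm2 with 0.60. The membrane-bound Mgst1 and Mgst3 had 0.75 and 0.71, Gstt2 had 0.61, and the single negative difference was that of Gsto1, -0.32.

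Gstz1 was lower in TKO on ND and higher on HFD. The calls of Cyp2ab1, Cyp8b1, Gstm3, Gsto1, Gstt2 and Mgst3 were lost when some single library was left out. Those of Cyp2c23, Cyp2f2, Cyp4f39, Gstm1, Gstm2 and Mgst1 held in each such fit and were lost without the 4 libraries with ciliated epithelium genes, where 2 libraries a group remained.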

How the results depend on the processing

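The counts of members called stayed within 1.5 times of those reported under the other pseudocounts, filters, scaling and tools. No called value changed sign, while uncalled ones near 0 could, as Gsto1 for HFD in WT did with TMM scaling (0.15 to -0.01). When only the groups compared were fitted, the count for TKO on ND was 2. Leaving out 1 library at a time gave 2 to 11 for TKO on ND, 26 to 32 for TKO on HFD, 33 to 38 for HFD in WT, 9 to 18 for HFD in TKO and 17 to 24 for the interaction. Without the 4 libraries with ciliated epithelium genes the counts were 0 for TKO on ND, 2 for HFD in TKO and 13 for the interaction, with 2 libraries a group, and the cause was not tested. The calls that held under every alternative, that one included, were 0 of 7 for TKO on ND, 24 of 30 for TKO on HFD, 31 of 36 for HFD in WT, 2 of 15 for HFD in TKO and 11 of 23 for the interaction. The stricter filter left 43 members in the fit. Members near 1 CPM rest on few reads, and 3 libraries a group limit the precision. Same-numbered libraries did not deviate together (r from -0.497 to 0.562 over 18 pairs, 5 of them over 0.1), so the numbers were not taken as pairs, and with the replicate block the counts were 6, 28, 35, 13 and 22 in the order above.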

Other observations

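The other marker lists varied with the groups as follows, as counts of limma calls. Beside them, 37.8% of all genes tested were higher and 20.3% lower for HFD in WT, and 15.2% were higher and 31.6% lower for TKO on HFD, and with lists this short a count of 2 is not told apart from those shares. Of 5 T and B cell markers, 3 rose on HFD in WT and all 5 were lower in TKO on HFD. Of 4 mast cell markers, 4 rose on HFD in WT and 3 were lower in TKO on HFD. Of 4 stromal progenitor markers, 2 rose on HFD in WT and 2 were lower in TKO on HFD. Of 6 mesothelium markers, 5 fell on HFD in WT, and their sum was 261 to 377 CPM in ND_WT and 91.8 to 123 in HFD_WT. Of 4 endothelium and 3 mural cell markers, 2 of each rose on HFD in WT. Of 4 brown and beige fat genes, 3 were tested, and 2 were higher and 1 lower in TKO on HFD. The 4 testis germ cell genes were under the filter and summed to at most 0.665 CPM. The part of these cell types in the members' changes was not tested.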
